A study of Mus musculus with 9 samples.

Results

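Pcolce, Rdh5, C1qtnf5 and Calml4 are 4 mouse genes, out of 18450 genes with a row in the deposited table, that were chosen because their levels were lower in brains of APP/PS1 mice from an enriched environment than in brains of control mice. The choice covered the enriched library that keeps a high level of Ttr, a leading transcript of choroid plexus epithelium. The rows were found by gene identifier, and all 4 genes passed the filter on low counts. Calml4 passed it only through the control libraries. Because the levels in enriched and control libraries made the choice, the difference between those groups is given as a description, without a test.

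Bulk RNA was sequenced from brain tissue of 9 mice of the APP/PS1 genotype, which carries transgenes for mutant amyloid precursor protein and presenilin and develops amyloid plaques. Of these mice, 3 had been exposed to stress, 3 had lived in an enriched environment and 3 were controls in a standard environment. A further label, for treatment, says standard rearing in all 9 mice, so the groups follow the group label, and age, sex and the promoters of the transgenes are not given in the sources used here. All groups carry the transgenes, there is no group without them, and each library mixes the brain stem with the anterior brain of a perfused mouse.

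Retinol is oxidised to retinaldehyde by retinol dehydrogenases, and retinaldehyde is oxidised to retinoic acid by aldehyde dehydrogenases of the Aldh1a family, while carrier proteins hold these lipids inside and outside cells. Rdh5 encodes a retinol dehydrogenase best known from the retinal pigment epithelium, where it makes 11-cis retinal for the visual cycle. Pcolce encodes a secreted glycoprotein that binds procollagens and speeds the removal of their C-terminal propeptides by the proteinase Bmp1. C1qtnf5 encodes a secreted protein with a short collagen stretch and a C1q domain, and mutations of the human gene cause a late-onset retinal degeneration. Calml4 encodes a small calmodulin-like protein known as a light chain of myosin in the adhesion complex between microvilli. Ttr, used here as a measure of choroid plexus in a library, encodes transthyretin, the carrier of thyroxine and of the retinol-binding protein Rbp4.

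On GRCm38.p6, the RefSeq annotation places Pcolce (gene 18542) on chromosome 5 from 137605105 to 137611522 on the minus strand. Rdh5 (gene 19682) lies on chromosome 10 from 128913588 to 128920037 on the minus strand, where its span overlaps that of Bloc1s1, on the same strand, by 124 bases. C1qtnf5 (gene 235312) lies on chromosome 9 from 44101770 to 44109187 on the plus strand and has the same 7418-base span as Mfrp, a gene for a frizzled-related membrane protein. Calml4 (gene 75600) lies on chromosome 9 from 62857472 to 62875921 on the plus strand, and 4553 of its bases overlap the pseudogene Gm10653. All annotated coding transcripts of Rdh5 (4 of 4) and C1qtnf5 (5 of 5) had a row. For Pcolce 1 of 2 had one, and for Calml4 5 of 6 had one, without the RefSeq transcript NM_138304.2.

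The promoters are printed because the 4 genes were chosen for a shared direction, and the letters show what their start regions do and do not share. Each comes from RefSeq promoter windows on GRCm38.p6, reading 5′ to 3′ along the gene's strand, and only bases outside annotated exons are given. They span chr5:137611523-137611654 (minus) for Pcolce, chr10:128919298-128919547 (minus) for Rdh5, chr9:44101520-44101728 (plus) for C1qtnf5 together with Mfrp, and chr9:62857854-62858079 (plus) for Calml4. The windows of Rdh5 and Calml4 lie inside the gene spans given above, since other annotated transcripts start further upstream. Capitals mark GGATTA, the reverse complement of the OTX-type homeobox motif TAATCC.
Pcolce promoter: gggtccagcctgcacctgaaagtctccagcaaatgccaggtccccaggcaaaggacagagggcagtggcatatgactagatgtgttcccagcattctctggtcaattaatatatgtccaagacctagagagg
Rdh5 promoter: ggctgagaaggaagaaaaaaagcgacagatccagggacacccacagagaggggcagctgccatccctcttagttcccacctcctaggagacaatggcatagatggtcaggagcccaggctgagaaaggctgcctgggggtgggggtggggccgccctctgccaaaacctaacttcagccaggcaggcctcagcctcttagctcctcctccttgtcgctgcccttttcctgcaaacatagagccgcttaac
C1qtnf5 and Mfrp promoter: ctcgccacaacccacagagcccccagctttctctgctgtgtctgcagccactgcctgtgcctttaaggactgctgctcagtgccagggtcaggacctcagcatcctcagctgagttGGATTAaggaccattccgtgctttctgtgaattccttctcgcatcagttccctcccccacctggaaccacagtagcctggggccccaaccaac
Calml4 promoter: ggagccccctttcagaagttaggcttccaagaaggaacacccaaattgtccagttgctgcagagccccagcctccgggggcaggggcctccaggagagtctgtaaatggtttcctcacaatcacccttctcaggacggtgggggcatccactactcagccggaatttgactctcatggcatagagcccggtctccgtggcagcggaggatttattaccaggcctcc
Both strands of each 300-base window were searched for TAATCC, for the nuclear receptor half-site AGGTCA and for the CCAAT box, 3 motifs that share no overlap in these windows. TAATCC was found in 1 of the 4 windows, that of C1qtnf5, and in 7.1% of all 32817 promoters. CCAAT was found in the same 1 window, outside the bases printed above, and in 37.4% of all promoters. AGGTCA was found in none of the 4 windows and in 16.3% of all promoters. No motif of the 3 was in more than 1 of the windows, which describes these letters and no factor.

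Levels are given in CPM (estimated reads scaled by the TMM-adjusted library size), from libraries of 15851833 to 17213008 estimated reads. Pcolce stood at 13.8, 17.9 and 15.8 CPM in stress libraries 1 to 3, at 12.6, 16.6 and 12.2 CPM in enriched libraries 1 to 3, and at 27.3, 27.4 and 26 CPM in control libraries 1 to 3. All 6 stress and enriched libraries thus lay below every control library. The means were 15.9 ± 2.03 CPM in stress, 13.8 ± 2.48 CPM in enriched and 26.9 ± 0.746 CPM in control libraries (SD, n = 3 each). In bulk tissue, fewer cells of a type and less RNA per cell cannot be told apart.

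Rdh5 had 6.5, 6.58 and 9.83 CPM in stress libraries, 5.99, 8.56 and 4.95 CPM in enriched libraries and 15.6, 15.3 and 14.5 CPM in control libraries. The control values were close together and above all others, whereas stress library 3 and enriched library 2 were the highest of their groups. Mean levels were 7.64 ± 1.9, 6.5 ± 1.86 and 15.1 ± 0.571 CPM in stress, enriched and control libraries (SD, n = 3 each). Bloc1s1, which overlaps the start of Rdh5 and encodes a subunit of a complex that helps to build lysosome-related organelles, had 33, 31.4 and 42.9 CPM in stress, 38.3, 32.9 and 35.5 CPM in enriched and 57, 44.5 and 41.3 CPM in control libraries. Its log2 fold change was −0.42 ± 0.16 (SE) for enriched against control, a smaller size than that of Rdh5.

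C1qtnf5 had 18.7, 22.1 and 20 CPM in stress libraries, 16, 23.2 and 13.6 CPM in enriched libraries and 38.8, 32.6 and 31.2 CPM in control libraries. Again no stress or enriched value reached a control value. Group means were 20.3 ± 1.71 CPM in stress, 17.6 ± 5.02 CPM in enriched and 34.2 ± 4.02 CPM in control libraries (SD, n = 3 each).

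Calml4 was the rarest of the 4 genes, and its values rest on few reads. It had 6.23, 15.1 and 4.41 estimated reads in stress libraries, 2.6, 1.44 and 2 in enriched libraries and 20.1, 17.9 and 18.8 in control libraries. Every enriched library was under 3 reads, the number a count of 0 allows, which corresponds to 0.178 to 0.188 CPM per library. Summed over a group after rounding, there were 25 reads in stress (exact Poisson 95% interval 16.2 to 36.9), 6 in enriched (2.2 to 13.1) and 57 in control libraries (43.2 to 73.9). These intervals cover counting error only. The mean level was 0.511 ± 0.362 CPM in stress, 0.122 ± 0.0602 CPM in enriched and 1.15 ± 0.0597 CPM in control libraries (SD, n = 3 each). Without the transcript NM_138304.2 these values describe the other 5 transcripts only.

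**Figure D1:**
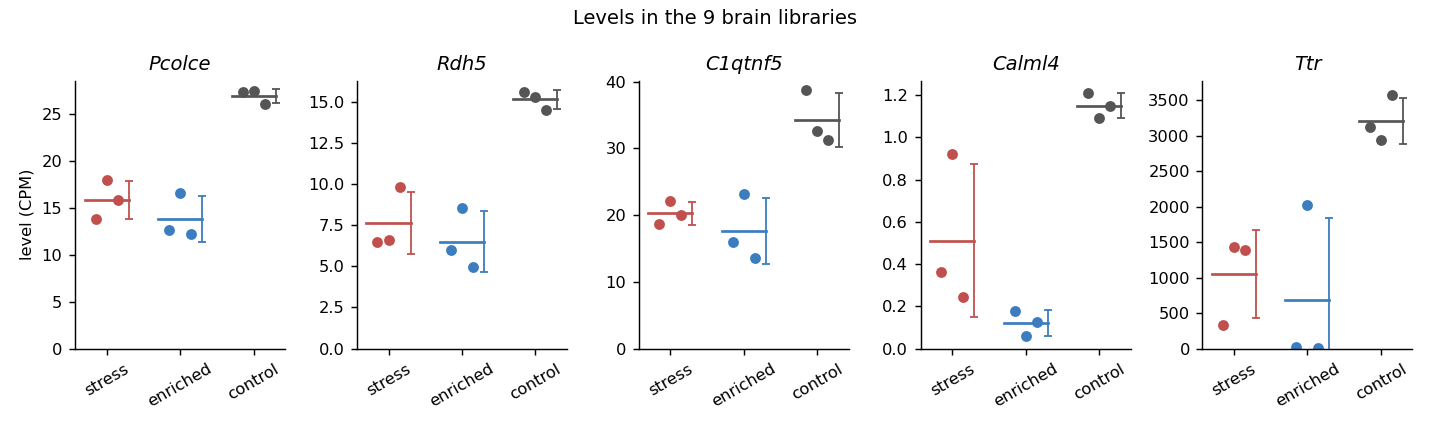
Level in CPM (y axis, from 0, its own scale for each gene) of Pcolce, Rdh5, C1qtnf5, Calml4 and Ttr in the 3 stress, 3 enriched and 3 control libraries, in that order from left to right, with points for libraries, bars for means and whiskers for SD (the lower whisker of Ttr in enriched libraries is clipped at 0). The control points lie above all other points in every panel, and enriched library 2 stands at 2020 CPM of Ttr beside 2 libraries near 0.

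On the scale per length, from the authors' deposited TPM, the order of the genes was C1qtnf5, Pcolce, Rdh5 and Calml4 in each group by mean. C1qtnf5 averaged 29.5 ± 3.24 TPM in stress, 25.9 ± 2.49 TPM in enriched and 40.3 ± 5.09 TPM in control libraries. Pcolce averaged 23.2 ± 3.73, 20.9 ± 4.3 and 35.7 ± 3.18 TPM in stress, enriched and control libraries, so that C1qtnf5 and Pcolce, neighbours in the order, overlapped in every group. Rdh5 averaged 14 ± 2.3 TPM in stress, 12.5 ± 3.78 TPM in enriched and 25.3 ± 1.82 TPM in control libraries, and each Rdh5 value lay below every Pcolce value of its group. Calml4 averaged 1.75 ± 1.17, 0.403 ± 0.203 and 3.67 ± 0.399 TPM in stress, enriched and control libraries (SD, n = 3 each throughout). Ttr exceeded them all, with means of 3440 ± 2040 TPM in stress, 2380 ± 4030 TPM in enriched and 9630 ± 1710 TPM in control libraries.

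The enriched libraries, whose values made the choice, were set against the control libraries as follows. Pcolce stood at 51.3% of its control mean CPM, with a log2 fold change of −0.96 ± 0.15 (SE). Rdh5 stood at 43.1%, with −1.21 ± 0.23, and C1qtnf5 at 51.5%, with −0.96 ± 0.19. Calml4 stood at 10.6%, with −3.16 ± 0.58. Across the genome, 13.6% of the 14694 tested genes had every enriched value below every control value and 12.5% had every enriched value above, so lying apart in this way was common in this comparison. With p-values of edgeR's quasi-likelihood test adjusted by Benjamini-Hochberg over all tested genes, 0 genes passed 0.05 (0% called), 2994 genes had an unadjusted p under 0.05, and DESeq2 called 40 genes. The edgeR count became 1586 without control library 3 and 33 without enriched library 2. The choice of the 4 genes was stated as a direction, without a threshold on a value, but it was made on these same values. Ordered by the edgeR p-value, Pcolce stood at rank 2, Calml4 at 5, Rdh5 at 7 and C1qtnf5 at 10 among the 14694 tested genes. Since the p-values come from the levels that made the choice, these ranks restate it and add no support.

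Stress libraries were not used in the choice, but the control libraries were, so the comparison of stress with control is not independent of it. Pcolce stood at 59% of its control mean in stress libraries, with a log2 fold change of −0.76 ± 0.15 (SE). The corresponding values were 50.6% and −0.98 ± 0.22 for Rdh5, 59.3% and −0.75 ± 0.19 for C1qtnf5, and 44.5% and −1.16 ± 0.47 for Calml4. None of the 4 genes passed the same edgeR test, where each had a Benjamini-Hochberg adjusted p of 0.546. In each of the 4 genes all 3 stress libraries lay below all 3 control libraries, as did 4.65% of all tested genes, while 5.19% had every stress value above. This comparison, too, had 0 genes called by edgeR (0%), with 1172 genes at an unadjusted p under 0.05 and 7 called by DESeq2, Pcolce among them. For Calml4 the log2 fold change became −1.89 without stress library 2, which held 15.1 of that group's reads.

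Between stress and enriched libraries, Pcolce, Rdh5 and C1qtnf5 overlapped, with log2 fold changes of 0.20 ± 0.15, 0.23 ± 0.23 and 0.20 ± 0.19 (SE). Calml4 was higher in every stress library than in every enriched library, with a log2 fold change of 2.0 ± 0.63. The separation rests on few reads, with 4.41 estimated reads in stress library 3 and 2.6 in enriched library 1. A count of 0 allows 3 reads. The change did not pass edgeR's quasi-likelihood test (Benjamini-Hochberg adjusted p = 0.999, as for the other 3 genes). Of all tested genes, 5.06% had every stress value above every enriched value and 5.42% had every stress value below, and edgeR called 0 (0%), with 388 at an unadjusted p under 0.05 and 0 called by DESeq2 (2 by edgeR without enriched library 2). This comparison shares its enriched libraries with the one that made the choice.

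The course of the 4 genes over single libraries differed in size from that of Ttr. Ttr had 330, 1430 and 1390 CPM in stress libraries, 24, 2020 and 11 CPM in enriched libraries and 3120, 2940 and 3570 CPM in control libraries. Enriched libraries 1 and 3 thus had next to no Ttr (0.749% and 0.344% of the control mean), whereas enriched library 2 had 63%. In those enriched libraries 1 and 3, Pcolce stood at 46.8% and 45.3% of its control mean, Rdh5 at 39.7% and 32.8%, and C1qtnf5 at 46.8% and 39.8%. In enriched library 2, Pcolce stood at 61.9%, Rdh5 at 56.7% and C1qtnf5 at 68%. The 3 genes were therefore highest where Ttr was highest among the enriched libraries, over a far smaller span than that of Ttr. For Calml4 no order among the enriched libraries can be read, since each held under 3 reads.

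Among the stress libraries, Ttr was lowest in library 1, at 10.3% of its control mean, and similar in libraries 2 and 3, at 44.5% and 43.4%. Pcolce stood at 51.5%, 66.6% and 58.9% of its control mean in stress libraries 1 to 3, and C1qtnf5 at 54.7%, 64.6% and 58.6%. Both had their lowest stress value in the library with the least Ttr. Rdh5 stood at 43%, 43.6% and 65.1%, so its stress library 2 stayed near library 1. Calml4 stood at 31.7%, 80.4% and 21.3%, and was lowest in library 3.

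Ratios to Ttr show the same spread on another scale. Per 1000 CPM of Ttr there were 42, 12.6 and 11.4 CPM of Pcolce in stress libraries, 524, 8.23 and 1100 CPM in enriched libraries and 8.73, 9.31 and 7.29 CPM in control libraries. The ratio in enriched library 2 lay within the control range for Pcolce, and that in enriched libraries 1 and 3 lay far above it. For Rdh5 the ratios were 19.7, 4.61 and 7.06 in stress, 249, 4.23 and 449 in enriched and 4.98, 5.2 and 4.05 in control libraries. As with Pcolce, enriched library 2 was inside the control range. For C1qtnf5 they were 56.7, 15.5 and 14.4 in stress, 666, 11.5 and 1230 in enriched and 12.4, 11.1 and 8.75 in control libraries, with enriched library 2 again inside the control range. For Calml4 they were 1.11, 0.647 and 0.175 in stress, 7.48, 0.0294 and 11.4 in enriched and 0.386, 0.37 and 0.322 in control libraries. Enriched library 2 lay below the control range for Calml4, on 1.44 reads.

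**Figure D2:**
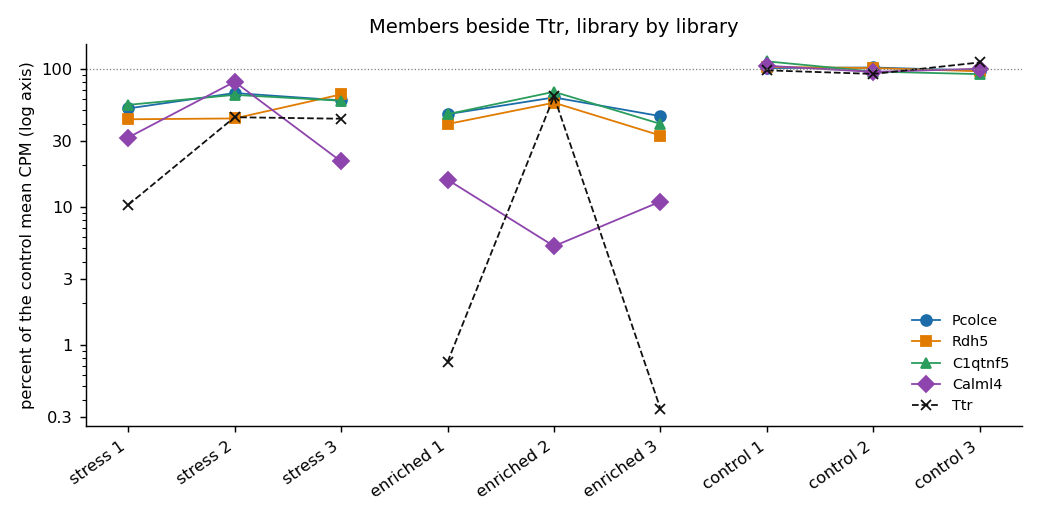
Level of each gene in each library as a percent of its control mean CPM (log y axis), for stress, enriched and control libraries from left to right, with solid lines for Pcolce, Rdh5, C1qtnf5 and Calml4, a dashed line for Ttr, and lines joining only libraries of 1 group. Ttr stands at 0.749% and 0.344% in enriched libraries 1 and 3, where Pcolce, Rdh5 and C1qtnf5 stay between 32.8% and 46.8%, and each enriched point of Calml4 rests on under 3 reads.

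Fits that take Ttr into account gave smaller sizes for Pcolce, Rdh5 and C1qtnf5. With the log2 CPM of Ttr as a covariate, the log2 fold change of enriched against control was −0.62 for Pcolce, −0.72 for Rdh5 and −0.49 for C1qtnf5, and −3.51 for Calml4. With enriched libraries 1 and 3 left out, so that enriched library 2 alone stood against the controls and was assumed to vary like the other groups, it was −0.70 for Pcolce, −0.82 for Rdh5, −0.56 for C1qtnf5 and −4.11 for Calml4, the last from 1.44 reads. The choice of the genes took in enriched library 2, so the direction of these values was fixed by it.

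Markers of choroid plexus and ependyma also lay below their control levels. Of 14 tested markers of choroid plexus epithelium, 14 had a log2 fold change below 0 in enriched against control libraries, 5 without overlap, with a median of −1.39 beside 0.02 over all tested genes. In stress against control libraries 14 of 14 were below 0, 10 without overlap, with a median of −1.22, again beside 0.02. The markers without overlap made 35.7% of the list for enriched and 71.4% for stress, beside 13.6% and 4.65% of all tested genes. Their summed level was 707 to 2120 CPM in stress, 232 to 3040 CPM in enriched and 3910 to 4980 CPM in control libraries. The channel subunit gene Kcne2, a defining marker, had 0.18, 12.1 and 0.314 CPM in enriched libraries and 15.4, 14 and 17.8 CPM in control libraries, and the folate receptor gene Folr1 had 0.24, 7.73 and 0 CPM in enriched and 14.5, 12.4 and 11.5 CPM in control libraries. Those markers were thus near 0 in enriched libraries 1 and 3. Other markers of the list were not, as the water channel gene Aqp1 had 18.4, 16.2 and 16.4 CPM in enriched and 17.3, 12.1 and 25 CPM in control libraries. The transporter gene Slc13a4 had 15.2, 32.1 and 18.8 CPM in enriched and 22.9, 22.5 and 35.4 CPM in control libraries. In enriched libraries 1 and 3 the list therefore ran from levels near 0 to levels in the control range.

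Ependymal markers were lower as well and varied less between enriched libraries. All 9 of 9 tested had a log2 fold change below 0 in enriched against control libraries, 6 without overlap, with a median of −0.82. In stress against control 9 of 9 were below 0, 4 without overlap, with a median of −0.81. The markers without overlap made 66.7% of the list for enriched and 44.4% for stress, beside 13.6% and 4.65% of all tested genes. Their summed level was 25.3 to 33.3 CPM in stress, 21.5 to 34.1 CPM in enriched and 34.5 to 55.1 CPM in control libraries. Foxj1, the master regulator of motile cilia, had 16.4, 16.9 and 8.59 CPM in enriched and 24, 22 and 14.8 CPM in control libraries, which overlap. The part of the choroid plexus and ependymal markers in the levels of the 4 genes was not tested beyond the fits with Ttr above.

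Meningeal fibroblast markers lay on both sides of their control levels. Of 15 tested, 5 were below 0 and 10 above in enriched against control libraries, with a median log2 fold change of 0.09, and 9 were below and 6 above in stress against control, with a median of −0.03. Summed, they came to 336 to 375 CPM in stress, 328 to 463 CPM in enriched and 415 to 446 CPM in control libraries. Igfbp2, a binding protein of insulin-like growth factors, lay below the controls without overlap, with 69.1, 78.4 and 52 CPM in enriched and 133, 97.4 and 102 CPM in control libraries. Dcn, which encodes the collagen-binding proteoglycan decorin, lay above them, with 32.7, 32.9 and 32 CPM in enriched and 25.4, 28.7 and 26.7 CPM in control libraries. Of the pineal and photoreceptor markers, 2 of 6 were tested, with log2 fold changes of −0.61 ± 0.19 (SE) for the disc-rim gene Rom1 and 0.12 ± 0.47 for the arrestin gene Sag.

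C1qtnf5 is read from transcripts of a pair of kinds. Its 2 longest transcripts also carry Mfrp, and their rows repeat the values of the 2 Mfrp rows, so the same estimated reads are listed under both genes. These bicistronic rows had 2.16, 6.27 and 5.4 CPM in stress libraries, 1.19, 10.5 and 1.22 CPM in enriched libraries and 9.87, 9.83 and 15 CPM in control libraries. Enriched library 2, the library that keeps Ttr, reached the control range here, while the other enriched libraries were at about 1 CPM. The 3 rows with C1qtnf5 alone had 16.6, 15.8 and 14.6 CPM in stress libraries, 14.8, 12.8 and 12.4 CPM in enriched libraries and 28.9, 22.8 and 16.2 CPM in control libraries. In these rows enriched library 2 did not stand above the other enriched libraries, all enriched values lay below all control values, and stress library 1 overlapped control library 3. A bicistronic row held 3.80 times as many reads per TPM as a row with C1qtnf5 alone, so its share is smaller in TPM than in reads.

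Without the rows shared with Mfrp, an alternative added after seeing the data, the log2 fold change of C1qtnf5 was −0.77 ± 0.192 (SE) for enriched against control and −0.53 ± 0.191 for stress against control. Mfrp itself, with the shared rows only, had −1.43 ± 0.73 for enriched against control and −1.33 ± 0.73 for stress against control (SE), and stood at 90.4% of its control mean in enriched library 2.

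**Figure D3:**
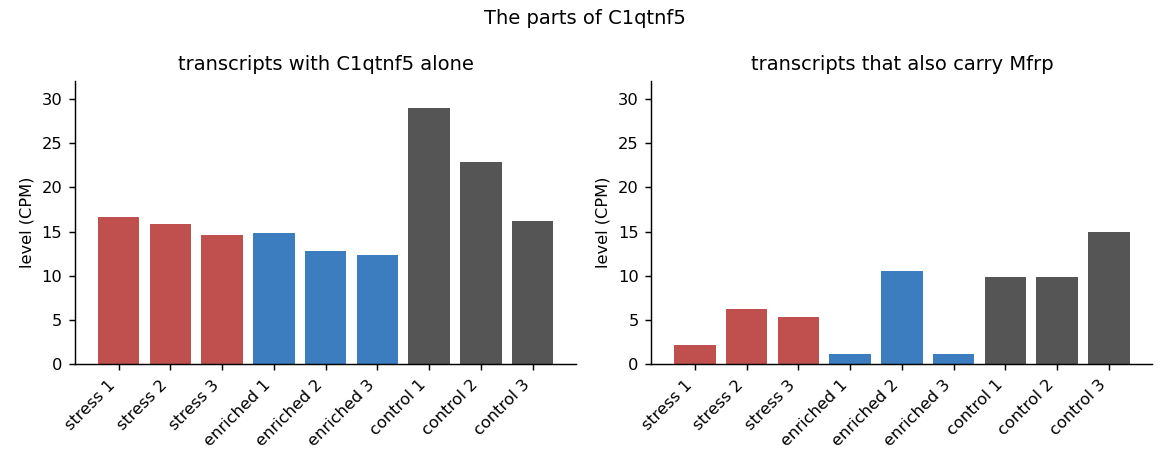
Level in CPM (y axis, from 0) of the C1qtnf5 transcripts without Mfrp (left panel) and of those that also carry Mfrp (right panel), as 1 bar per library for stress, enriched and control from left to right. Enriched library 2 stands at 10.5 CPM in the right panel, beside 1.19 and 1.22 CPM, while the 3 enriched libraries lie between 12.4 and 14.8 CPM in the left panel.

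Shares of transcripts within a gene come from the same reads as its level, so the shares in enriched and control libraries are given as a description. The bicistronic rows held 11.5%, 28.4% and 27% of the C1qtnf5 reads in stress libraries, 7.42%, 45% and 8.99% in enriched libraries and 25.4%, 30.2% and 48% in control libraries. The groups overlapped, with means of 22.3% in stress, 20.5% in enriched and 34.5% in control libraries, and among the enriched libraries library 2 had both the highest share and the highest level. For stress against control, the two-sided exact permutation p was 0.3 with 3 against 3 libraries, where 0.1 is the smallest possible.

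The leading Rdh5 transcript, NM_001358527.1, held 50.6% ± 16.1 of its gene's reads in stress, 51.1% ± 5.3 in enriched and 51.9% ± 4.98 in control libraries (SD, n = 3 each). NM_134006.5 held 35.9% ± 11.1, 37% ± 3.31 and 33.5% ± 7.14 in stress, enriched and control libraries, and XM_006513385.3 held 11% ± 2.73, 11.8% ± 5.69 and 11.3% ± 2. In these 3 transcripts the groups overlapped. The rarest, XM_006513386.2, was listed at 0 in all 3 enriched libraries and had reads in stress library 3 (7.55% of the gene) and in control libraries 2 and 3 (4.91% and 5.11%), and it was not tested. For stress against control, 9 shares of Rdh5 and C1qtnf5 were tested, with the bicistronic rows together among them. The exact permutation p was 1 for each after Benjamini-Hochberg adjustment, over 27 tests in 3 comparisons. Since 0.1 is the smallest possible p before adjustment, no share could have passed 0.05, and the test cannot decide whether shares differed.

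Across all genes, levels also varied with transcript length, and short transcripts were high in control library 1. At the length of each gene, the fitted trend for enriched minus control was −0.201 (log2) for Pcolce, −0.252 for Rdh5, −0.185 for C1qtnf5 and −0.35 for Calml4. With that trend removed, the log2 fold change of enriched against control was −0.76 for Pcolce, −0.96 for Rdh5, −0.76 for C1qtnf5 and −2.83 for Calml4.

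**Figure D4:**
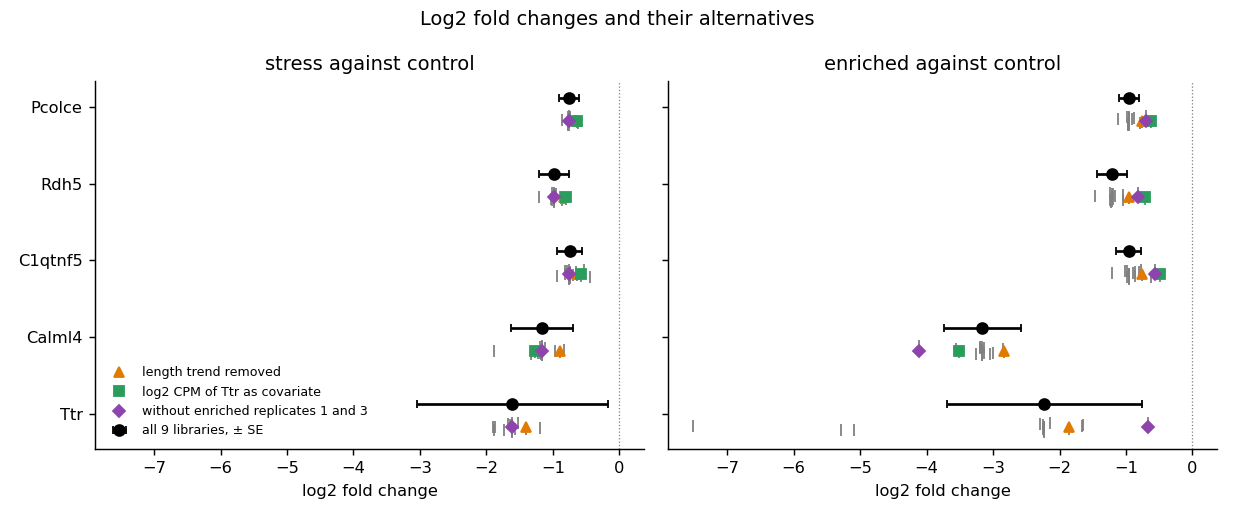
Log2 fold change (x axis) of stress against control (left) and enriched against control (right) for Pcolce, Rdh5, C1qtnf5, Calml4 and Ttr, with black points and whiskers for the fit to all 9 libraries with its SE, coloured symbols for 3 of the alternatives and grey ticks for the others. All values of Pcolce, Rdh5, C1qtnf5 and Calml4 lie below 0, a direction that the choice of these genes fixed for enriched against control, and those of Ttr for enriched against control spread from −7.51 to −0.67.

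Genes with the most similar pattern were sought among 11759 genes with a mean of at least 5 CPM, by the root mean square difference of log2 CPM over the 9 libraries after centring each gene. Pcolce and C1qtnf5 were each other's nearest gene, at 0.11, and the collagen chain gene Col9a3 was close to both, at 0.12 from Pcolce and 0.17 from C1qtnf5. Close to Rdh5 were the protease inhibitor gene Spint2 (0.20) and C1qtnf5 (0.22). Calml4 had no such close neighbour, with Serpinb1b at 0.70, Lrrc45 at 0.73 and Pcolce at 0.74. Ttr lay at 2.61 from Pcolce, 2.51 from Rdh5, 2.57 from C1qtnf5 and 2.47 from Calml4, and had Folr1 (0.70), Kcne2 (0.97) and Sostdc1 (1.30) as its own nearest genes. The measure describes 9 libraries in 3 groups, and the choice of the 4 genes on 6 of these libraries brings them close in part.

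Other retinoid genes had log2 fold changes in both directions. Of 35 genes listed for retinoid enzymes, binding proteins and transport, 32 had a row and 19 were tested. In enriched against control libraries 10 had a log2 fold change below 0 and 9 above, with a median of −0.14. Without overlap were 3 below (15.8%) and 2 above (10.5%), near the 13.6% and 12.5% of all tested genes. In stress against control 12 were below 0 and 7 above, with a median of −0.08. None was called by edgeR, which called 0 of all 14694 tested genes. For enriched against control 4 of the 19 had an unadjusted p under 0.05, beside 2994 of the 14694 tested genes. Aldh1a1, which makes retinoic acid, had 230, 198 and 213 CPM in stress, 180, 177 and 166 CPM in enriched and 222, 244 and 175 CPM in control libraries, overlapping the controls in both cases.

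The reductases Rdh11 and Dhrs3, next in abundance, had log2 fold changes of 0.03 ± 0.11 and −0.28 ± 0.17 (SE) for enriched against control, with overlapping groups. Aldh1a3, another enzyme of retinoic acid synthesis, lay above the controls with 3.11, 2.2 and 2.7 CPM in enriched and 1.87, 1.39 and 1.27 CPM in control libraries. The retinol carrier gene Rbp4 overlapped, with 4.01, 6.12 and 4.08 CPM in enriched and 6.75, 7.61 and 5.26 CPM in control libraries. Retinoid nuclear receptors showed no separation of the groups. All 6 overlapped in both comparisons, with a median log2 fold change of 0.00 for enriched and −0.19 for stress against control. The name retinoid therefore describes Rdh5 among the 4 genes, rather than the pathway as listed.

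The genes that work beside the other members gave similar counts. Of 28 tested genes for fibrillar procollagens, their processing and crosslinking, 16 were below 0 and 12 above in enriched against control libraries (median log2 fold change −0.15). Without overlap were 3 below and 3 above (10.7% each), beside 13.6% and 12.5% of all tested genes. In stress against control 19 were below 0 and 9 above (median −0.16). Bmp1, the proteinase that Pcolce assists, had 44.4, 43.5 and 48.5 CPM in enriched and 45.4, 53.3 and 48 CPM in control libraries, which overlap. P4hb, a subunit of prolyl hydroxylase, had a log2 fold change of −0.17 ± 0.09 (SE) with overlap, whereas Ppib, a prolyl isomerase of collagen folding, had 90.1, 79.8 and 78.8 CPM in enriched and 143, 106 and 99.8 CPM in control libraries. Pcolce2, the paralogue of Pcolce, had 7.13, 6.9 and 4.77 CPM in enriched and 9.65, 10.1 and 6.78 CPM in control libraries, which overlap.

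Of 17 tested genes of the C1q and TNF domain family, with Mfrp counted among them, 12 were below 0 and 5 above in enriched against control libraries (median log2 fold change −0.25). Without overlap were 2 below (11.8%) and 1 above (5.88%), beside 13.6% and 12.5% of all tested genes. In stress against control 10 were below 0 and 7 above (median −0.07). Cbln3, C1qtnf4 and C1qa, the most abundant of these and known as a synaptic organiser, a secreted factor and a complement subunit, had log2 fold changes of −0.05 ± 0.24, −0.30 ± 0.21 and −0.25 ± 0.20 (SE), all with overlapping groups. Of 6 tested calmodulins and centrins, 3 were below 0 and 3 above, with a median of −0.02, and in stress against control the split was again 3 and 3, with a median of 0.01. The calmodulin genes Calm3 and Calm2 had −0.18 ± 0.12 and −0.05 ± 0.13, with overlap. Of 9 listed intermicrovillar and Usher complex genes, 4 were tested. The filter on low counts removed Ush1c, Myo7b, Cdhr2, Cdhr5 and Anks4b. Of the 4 tested, 1 was below 0 and 3 above (medians 0.47 for enriched and 0.14 for stress against control). Among them, the myosin gene Myo7a had −0.18 ± 0.12, the scaffold gene Ush1g 0.72 ± 0.26 and the protocadherin gene Pcdh15 0.95 ± 0.36 for enriched against control. In each of these lists edgeR's quasi-likelihood test called 0 genes in either comparison with control. It called 0 of all 14694 tested genes too, so this count does not set the lists apart.

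**Figure D5:**
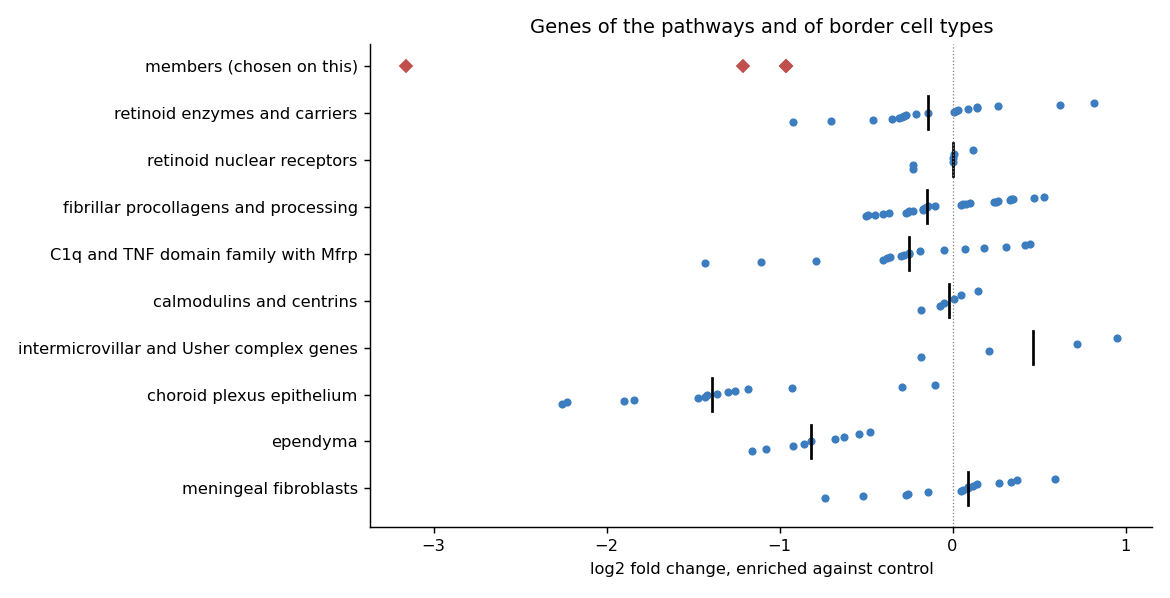
Log2 fold change of enriched against control (x axis) of every tested gene of 6 pathway lists and 3 lists of border cell type markers, with 1 row per list, points for genes and black lines for list medians. The top row shows Pcolce, Rdh5, C1qtnf5 and Calml4, chosen on this difference (Pcolce and C1qtnf5 coincide at −0.96), while the list medians run from −1.39 for choroid plexus epithelium to 0.47 for intermicrovillar and Usher complex genes.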

How the data were processed

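Per the submitters' processing notes, HISAT2 2.0.4, Bowtie2 2.2.5 and RSEM 1.2.12 were used with build GRCm38.p6, without roles. Per the labels' protocols, messenger RNA was captured on oligo(dT) beads and copied with random hexamers, with neither strand marking nor molecular identifiers described. The authors' deposited table gives each coding transcript an estimated count (56.5% of values not whole), a TPM, which the authors scaled by length and library size, and an FPKM (9 columns, not used). It has 65535 transcript rows, and 3.93% to 4.33% of each library's TPM is on transcripts not analysed here. With its header the table has 65536 lines, a number at which spreadsheets can end, and every annotated coding transcript has a row for 65.2% of matched genes, so a gene's level is the sum over transcripts with a row. RSEM divides reads of similar transcripts by estimation, so values of single isoforms are less certain than gene sums.

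Estimated counts were summed per gene (18450 genes, 18398 matched to RefSeq symbols), rounded, filtered with filterByExpr (minimum count 10, minimum total 15) and scaled by TMM. A single fit of edgeR 4.0.16's quasi-likelihood test in R 4.3.3 covered 14694 genes and all 9 libraries, with 6 residual degrees of freedom, Benjamini-Hochberg adjustment over all genes tested and a threshold of 0.05. Standard errors come from its F statistic. The fit was tested on simulated data. At 3 libraries per group, the spread between animals limits precision. Each title carries a separate animal code, and replicates were numbered within groups only, pairing no animals. The first letter of that code is C for all stress animals and control replicate 1, and D for the others, with no meaning given in the sources used here.

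Alternatives were RLE size factors, no count filter, DESeq2 1.42.0, limma 3.58.1 (voom, and log2 of TPM plus 0.1), covariates for the code letter or Ttr, removal of the length trend (loess, span 0.4) and leaving out libraries. Genes named are the members, Ttr, overlapping genes, the 3 most abundant tested genes of each pathway list, defining markers and the 3 genes nearest each member, of which some are not reported here. Aldh1a3, Rbp4, Ppib, Pcolce2, Omp, Reg3g and Gng13 were named after their values were seen. The members, the 6 pathway lists and the 11 marker lists were chosen with earlier results of these data known.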

Additional observations from a re-analysis of the deposited data

How the results depend on the processing

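For enriched against control, Pcolce, Rdh5, C1qtnf5 and Calml4 stayed below 0 in every alternative run, and so they did for stress against control. Of 219 alternative values of these 4 genes over the 3 comparisons, 7 changed sign. The 4 genes were chosen on enriched against control, so the direction there is fixed by the choice and is no sign of stability. As a description without a test, DESeq2's log2 fold changes for that comparison were −0.97 for Pcolce, −1.22 for Rdh5, −0.96 for C1qtnf5 and −3.25 for Calml4. In stress against control, DESeq2 called Pcolce, at −0.77 (adjusted p = 0.0241), whereas edgeR's quasi-likelihood test gave an adjusted p of 0.546. The control libraries were used in the choice of Pcolce, and neither value allows for that. For enriched against control, leaving out 1 library gave ranges of −1.12 to −0.88 for Pcolce, −1.46 to −1.05 for Rdh5, −1.21 to −0.80 for C1qtnf5 and −3.55 to −2.85 for Calml4.

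For stress against enriched, signs changed with Ttr as covariate (Pcolce −0.02, Rdh5 −0.08, C1qtnf5 −0.09), without enriched replicates 1 and 3 (Pcolce −0.07, Rdh5 −0.16, C1qtnf5 −0.19, Ttr −0.94) and with the code letter as covariate (C1qtnf5 −0.08). The bicistronic share of C1qtnf5 in stress minus enriched was −0.329 percentage points in TPM, against 1.82 in reads. With log2(TPM + 0.1), C1qtnf5 had −0.63 for enriched and −0.44 for stress against control.

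Genes called by edgeR numbered 0 in each comparison with all libraries. For enriched against control there were 40 with DESeq2, and leaving out 1 library gave 0 to 1586, with 1586 without control replicate 3 and 33 without enriched replicate 2. For stress against control there were 7 with DESeq2 and 3 with the code letter as covariate. For stress against enriched there was 1 with the code letter, and leaving out 1 library gave 0 to 2. The causes were not tested. For enriched against control without control replicate 3, the 1586 called genes held 2 of 19 retinoid genes and 4 of 9 ependymal markers. Without enriched replicate 2, the 33 called genes held 8 of 14 choroid plexus markers. The replicate left out there had 2020 CPM of Ttr, beside 24 and 11 CPM in enriched replicates 1 and 3. List sizes are those tested with all libraries, where 14694 genes were tested. Beside 1586 of these 14694 genes, the retinoid share was near that of all genes and the ependymal share was above it. Beside 33 of these 14694 genes, the choroid plexus share was above that of all genes. No paired analysis was possible because replicate numbers follow accession order and pair no animals. Depth limits Calml4 most, with under 3 reads in each enriched library.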

Other observations

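Marker lists of other cell types gave these values. For these lists edgeR's quasi-likelihood test called 0 genes in either comparison with control, as it did among all 14694 tested genes. Endothelial markers ran opposite to Pcolce, Rdh5, C1qtnf5 and Calml4, with 7 of 7 above 0 in both comparisons, medians of 0.90 (log2) for enriched and 1.12 for stress against control, and summed levels of 139 to 322 CPM in stress, 99.8 to 194 CPM in enriched and 83.4 to 114 CPM in control libraries. Of these, 5 lay above the controls without overlap in stress libraries (71.4%, beside 5.19% of all tested genes). For enriched libraries the count was 1 (14.3%, beside 12.5%). Pericyte and smooth muscle markers had medians of 0.11 for enriched and 0.39 for stress against control, over 8 tested genes. Olfactory and nasal markers had medians of 4.17 and 0.56 over 5 tested genes, with 4 above 0 and 1 below in each comparison. Omp had 67.3, 0.476 and 50.3 CPM in enriched libraries 1 to 3 and 0.362, 0.362 and 0.424 CPM in control libraries. Reg3g had 1.8, 0.892 and 0.815 CPM in enriched and 0.121, 0 and 0.121 CPM in control libraries. Gng13, the most abundant, had −0.57 ± 0.39 (SE) for enriched against control. Medians for enriched against control were 0.10 for microglia, 0.14 for astrocytes, −0.30 for oligodendrocytes and 0.15 for neurons, and those for stress against control were 0.10, −0.06, 0.03 and 0.09 in the same order.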
